A study of Homo sapiens with 22 samples.

Results

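OS-LM1, a metastatic renal cancer line, was compared with the parental line 786-O across all genes, in 4 libraries of polyadenylated RNA, 2 of each line, out of 22 in the series. The line 786-O comes from a clear cell renal carcinoma and carries an inactivated VHL gene. OS-LM1 is known from earlier work as a derivative of another clear cell renal carcinoma line, OS-RC-2, selected in animals for growth in the lung, and libraries of OS-RC-2 were not analysed here. Another line, 786-M1A, selected from 786-O in the same way, gave 2 libraries and was placed beside both. The labels name these only as renal cancer cell lines, with no modification, grown in RPMI with 10% serum and taken at 80% confluence. The other 16 libraries, of 786-M1A cells with CRISPR interference, were not used. OS-LM1 and 786-O differ in the patient of origin and in selection for metastasis, and these cannot be told apart in this comparison, while 786-M1A shares the patient of 786-O. The labels do not say whether the 2 libraries of a line came from separate cultures, and a p-value here takes in no more than the variation among libraries, possibly of technical origin.

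In most clear cell renal carcinomas the VHL protein, which marks the hypoxia-inducible factors (HIF) for destruction, is lost, and HIF target genes stay on in the presence of oxygen. HIF1A and EPAS1 (HIF-2 alpha) are the oxygen-regulated subunits of these factors, and ARNT is their partner. NF-kB is a family of transcription factors that inflammatory signals release from its inhibitors, and its targets include chemokines and cytokines that tumour cells can secrete. CXCR4, the receptor of the chemokine CXCL12, is a HIF-responsive gene linked to metastasis of this tumour, and CYTIP is a cytohesin-binding protein best known from lymphoid cells.

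In units of 1e6, the expected counts summed to 39.7 and 41.8 in 786-O, 25.8 and 15.6 in OS-LM1 and 52.7 and 49.3 in 786-M1A. Levels are given as CPM, that is per 1e6 counts after each library's total was scaled by TMM, and log2 fold changes come from edgeR. Each of the 10 renal carcinoma markers was detected, and the sum of their levels was 5844 to 6238 CPM in 786-O and 6703 to 6800 in OS-LM1. Most of this sum was vimentin (VIM), which is also in the mesenchymal list. A mean of 5 CPM was reached by 10 markers in OS-LM1 and 8 in 786-O. The exceptions in 786-O were CA9 (0.151 and 0.0237 CPM) and NDUFA4L2 (0.101 and 0.0947 CPM). Leukocyte markers summed to 6.65 to 6.66 CPM in 786-O and 10.4 to 13.9 in OS-LM1, and 4 of the 16 (CD3E, MS4A1 and TYROBP among them) had 0 counts in all 6 libraries. The 10 endothelial markers summed to 2.08 to 2.27 and 4.47 to 6.04 CPM, with CDH5 at 0, and the 10 fibroblast markers to 13.8 to 13.9 and 28.6 to 28.9 CPM. The OS-LM1 libraries differed from each other more than those of the other lines (mean chi-square per gene 30.2, against 5.51 in 786-O and 7.43 in 786-M1A), and their reads came from shorter genes (mean length 3617 and 3391 bases, against 3909 and 3915). The median log2 fold change against 786-O ran from 0.34 in the shortest of 5 equal length classes of genes to -0.35 in the longest, against 0.00 and -0.03 in 786-M1A. Between the OS-LM1 replicates it ran from 0.14 to -0.24. In bulk RNA, fewer cells of a type and less RNA per cell cannot be told apart. Medians after a correction for gene length are given for the groups in which it turned their sign and for several others, and the part of RNA quality in the dependence was not tested.

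Of 16354 genes tested, 4966 (30.4%) were higher and 5439 (33.3%) lower in OS-LM1 than in 786-O at an adjusted p under 0.05, which is 63.6% in all. The median log2 fold change of all tested genes was -0.01. A log2 fold change of at least 1 was reached by 2817 of the higher and 2365 of the lower genes, and one of at least 3 by 780 and 480. Of the 10405 called genes, 10402 had no overlap between the libraries of the lines, as had 13584 of all genes tested. In 786-M1A versus 786-O, 2398 genes (14.7%) were higher and 2667 (16.3%) lower, 31.0% in all, and a log2 fold change of at least 3 was reached by 94 and 417. The 786-M1A count fell to between 2259 and 2551 when 1 library of 786-O or of 786-M1A was left out, and rose to 8762 and 8763 without OS-LM1 replicate 1 or 2. Between OS-LM1 and 786-M1A, 68.7% of genes were called. In log2(TPM + 1), on which the median of all genes shifted from -0.01 to -0.13, 4364 genes were higher and 6509 lower, so that 40.1% of calls were higher in place of 47.7%. The counts of the gene groups are to be read against these shares of all genes. In OS-LM1 these were 30.4% higher and 33.3% lower, and in 786-M1A 14.7% and 16.3%. A list whose calls lie near these shares differs little from all genes in its calls.

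Some genes were read in one line and had no count in the other. In both 786-O libraries together, 22 genes had 0 counts while their mean level in OS-LM1 was at least 5 CPM, and 16 of these also had 0 counts in 786-M1A, with none at 5 CPM there. GLUL, glutamine synthetase, stood at 66.7 and 59.2 CPM in OS-LM1 and at 0 in the other 4 libraries, at least 1741-fold higher than in 786-O (adjusted p = 7.4e-07). Folds of this kind are lower bounds that set the group at 0 to a floor of 3 counts over its 2 libraries. PHGDH, the first enzyme of serine synthesis, was at 21.2 and 23.9 CPM in OS-LM1 and at 0 elsewhere, at least 608-fold higher (adjusted p = 2.9e-06). TMEM196, ATL1 (a GTPase that shapes the endoplasmic reticulum), GSPT2 (a translation release factor) and C8orf4 showed the same pattern, with OS-LM1 levels of 17.8 and 16.9, 16.9 and 14.4, 13.2 and 11.2 and 38.3 and 45.7 CPM. ADD2, a cytoskeletal adducin, was at 109 and 62.02 CPM with 1 count in 786-O, a ratio of 7409-fold (95% counting interval 1329 to 292700). INSR, the insulin receptor, was likewise at 18.2 and 18.9 CPM in OS-LM1, 0.0252 and 0 in 786-O and 0 and 0 in 786-M1A, a ratio to 786-O of 1513-fold (95% counting interval 271 to 59840). The long noncoding RNA HEIH was at 12.9 and 15.4 CPM in OS-LM1, 0 and 0 in 786-O and 0.0618 and 0 in 786-M1A, at least 379-fold higher than in 786-O.

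In the other direction, 19 genes at 5 CPM or more in 786-O had 0 counts in OS-LM1. In 786-M1A 16 of them were at 5 CPM or more and none was at 0. DPYSL4 was at 37.9 and 37.5 CPM in 786-O, 50.3 and 50.6 in 786-M1A and 0 in both OS-LM1 libraries, at least 557-fold lower (adjusted p = 2.0e-07). MPDZ, a multi-PDZ scaffold, was at 22.3 and 21.8 CPM in 786-O and 0 in OS-LM1, at least 326-fold lower. NDN, necdin, which is expressed from the paternal allele, stood at 22.9 and 19.7 and 12.4 and 11.7 CPM in the lines from the first patient, in that order, and at 0 in OS-LM1. The steroid sulfatase STS, on the X chromosome, was at 17.7 and 16.97 CPM in 786-O and 14.96 and 14.9 in 786-M1A, and at least 256-fold lower in OS-LM1. CHST10 (a sulfotransferase), ITPKB (an inositol trisphosphate kinase) and MDGA2 were lower by at least 271-fold, at least 244-fold and at least 198-fold. SLC17A9, a vesicular nucleotide transporter, had 1 count in OS-LM1 and was at 104 and 109.8 CPM in 786-O and 191 and 163 in 786-M1A (adjusted p = 7.2e-08). SRGAP2B and FAM45A also had 0 counts in OS-LM1, but both have near-identical copies among which reads can be split, and are uncertain. ZSCAN18, DMRTA1, MEX3B and NUDT11, at 13.1 and 11.3, 10.6 and 11.4, 10.7 and 10.6 and 7.06 and 8.47 CPM in 786-O, had none in OS-LM1 and log2 fold changes of 0.04 to 0.22 in 786-M1A, where none of the 4 passed the test.

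Genes called in both metastatic lines against 786-O were sorted by direction. Both comparisons use the same 786-O libraries, so a deviation of these enters both. On the OS-LM1 side of 786-O, 786-M1A was placed for 2028 genes, 890 higher and 1138 lower in both, which is 12.4% of the genes tested, 19.5% of those called in OS-LM1 and 40.0% of those called in 786-M1A. On the opposite side it was placed for 1462 genes, 706 higher in OS-LM1 and lower in 786-M1A and 756 the reverse, 8.94% of the genes tested and 14.1% and 28.9% of the calls. Of the genes on the OS-LM1 side, 343 of the 890 higher ones were called higher still in OS-LM1 than in 786-M1A and 116 lower. Of the 1138 lower ones, 407 were called lower in OS-LM1 than in 786-M1A and 195 higher. These counts moved with the libraries in the fit. The OS-LM1 side held 992 and 960 genes without 786-O replicate 1 or 2, 1109 and 1152 without 786-M1A replicate 1 or 2, and 3358 and 3460 without OS-LM1 replicate 1 or 2. The opposite side held 482 and 470, 589 and 605, and 3318 and 2939 genes in the same order, and 2474 where each comparison was fitted on its own libraries. Where both comparisons also passed a log2 fold change of 1, 741 genes were on the OS-LM1 side and 356 on the opposite side. Named genes also gained calls. Fitted on the compared lines alone, 47 more were called in 786-M1A versus 786-O and 1 was lost. VHL, HSP90AA1 and FN1 were among those gained. A gene that did not pass in 786-M1A in the shared fit, which takes in the OS-LM1 libraries, can therefore pass in another. Of the 165 named genes called in 786-M1A versus 786-O, 38 and 42 missed the threshold without 786-O replicate 1 or 2, ACSS2, MET, DPYSL4, C5 and STAG2 without each of them among others, and 37 and 40 without 786-M1A replicate 1 or 2. In OS-LM1 versus 786-O, 15 and 11 of 282 did so without 786-O replicate 1 or 2.

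**Figure D1:**
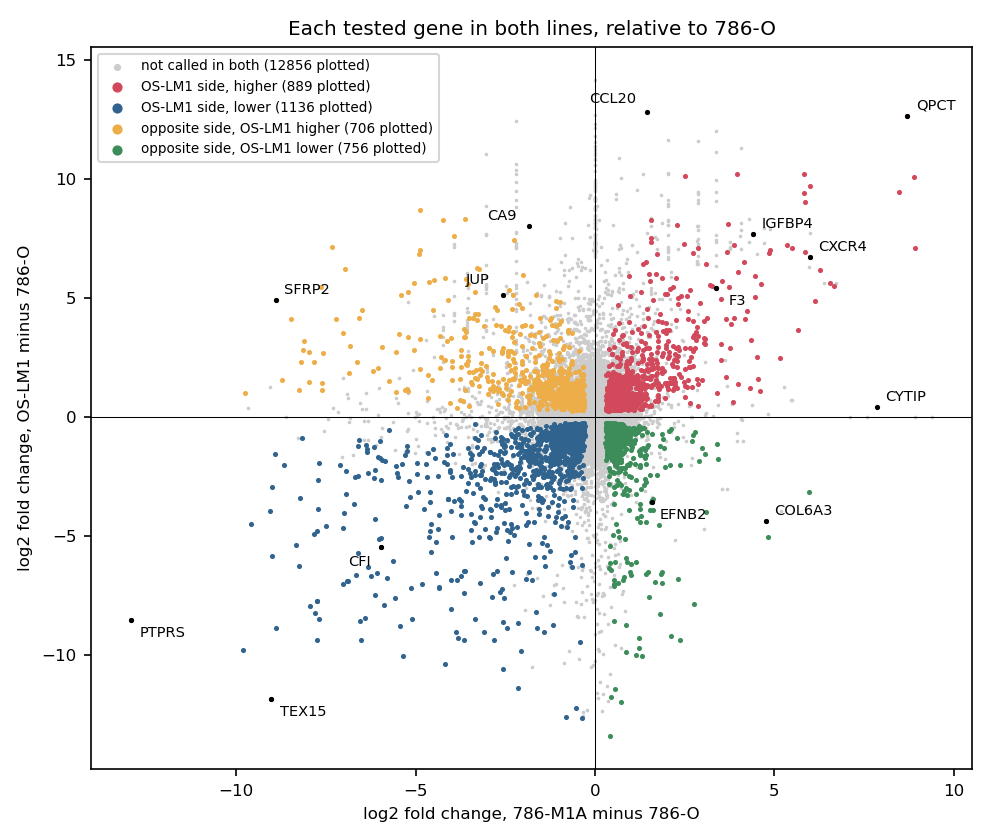
Log2 fold change of each tested gene in 786-M1A versus 786-O (horizontal) and in OS-LM1 versus 786-O (vertical), with genes called in both comparisons coloured by side and the others grey; XIST and Y-linked genes were left out, so the plotted numbers can be slightly under those of the text. CXCR4 lies high on both axes, CYTIP at 7.85 on the horizontal axis and 0.42 on the vertical one, and values of genes with 0 counts in a line depend on the prior count of the fit.

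Higher in both metastatic lines were genes of several functions, all of them higher in OS-LM1 than in 786-M1A among the 8 that led this group. QPCT, glutaminyl-peptide cyclotransferase, had 0 counts in 786-O and stood at 23.2 and 20.98 CPM in OS-LM1 and 1.32 and 1.52 in 786-M1A. It was at least 610.2-fold and at least 38.7-fold higher than in 786-O. IGFBP4, which binds insulin-like growth factors, was at 97.9 and 101 CPM in OS-LM1, 0.505 and 0.450 in 786-O and 10.9 and 9.43 in 786-M1A (log2 fold change 7.69, SE 0.16, adjusted p = 5.1e-08). The linker histone gene H1F0 was at 71.8 and 70.6 CPM in OS-LM1, 0.429 and 0.521 in 786-O and 7.29 and 6.63 in 786-M1A (log2 fold change 7.21 and, in 786-M1A, 3.86). GJB2, connexin 26, a gap junction channel, was at 161 and 155 CPM in OS-LM1, 3.86 and 3.31 in 786-O and 45.8 and 48.8 in 786-M1A. No library of 786-O overlapped one of either metastatic line for these genes, which follows from how they were chosen. Naming required no overlap with OS-LM1, and the ranking took large fold changes in both lines. EPB41L3, a membrane skeleton protein, rose from 1.06 and 1.18 CPM in 786-O to 14.1 and 14.6 in 786-M1A and 156 and 121 in OS-LM1 (log2 fold change 6.95 in OS-LM1). CRIP1, a LIM domain protein, had 3 counts in 786-O and was at 43.6 and 53.02 CPM in OS-LM1, a ratio of 1291-fold (95% counting interval 441 to 6266). RCSD1 and C6orf141 completed the group, with 9.95 and 8.15 and 13.9 and 15.2 CPM in OS-LM1 and at most 0.142 in 786-O.

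The 8 genes that led those lower in both lines were at or near 0 in each. They were ranked by the smaller absolute log2 fold change of the 2 comparisons, so low levels in both lines follow from the choice. ELFN1, a synaptic adhesion protein, was at 0.0373 and 0.0570 CPM in OS-LM1, 33.1 and 31.9 in 786-O and 0.144 and 0.154 in 786-M1A. PTPRS, a receptor tyrosine phosphatase, was at 0.0745 and 0.0570 CPM in OS-LM1, 27.4 and 25.7 in 786-O and 0 and 0 in 786-M1A. TEX15, a germ cell gene, was at 12.7 and 12.97 CPM in 786-O, had 0 counts in OS-LM1 and 2 in 786-M1A. WLS, which carries WNT ligands to the cell surface, was at 0.410 and 0.399 CPM in OS-LM1, 25.4 and 22.3 in 786-O and 0.0412 and 0.0441 in 786-M1A (log2 fold change -5.87, SE 0.21, adjusted p = 3.1e-07), and it was lower in 786-M1A than in OS-LM1 (adjusted p = 5.2e-04). ANO3, VWDE, LRCH2 and PRSS12 stood at 7.90 and 7.86, 9.56 and 9.44, 9.96 and 11.7 and 7.74 and 7.90 CPM in 786-O and below 0.2 CPM in each library of both metastatic lines. Of these 8 genes, PTPRS, LRCH2 and WLS were called between OS-LM1 and 786-M1A, and TEX15, ANO3, ELFN1, VWDE and PRSS12 were not. The call of PTPRS rests on 3 counts in OS-LM1 against 0 in 786-M1A. That of LRCH2 (adjusted p = 0.0493) rests on 6 counts in OS-LM1 against 3 in 786-M1A. Its ratio of 4.23-fold has a counting interval of 0.904 to 26.15, which includes equal levels. The calls of PTPRS and LRCH2 between the metastatic lines are therefore uncertain.

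On the opposite side, genes higher in OS-LM1 and lower in 786-M1A included SFRP2, a secreted WNT antagonist, at 44 and 53.3 CPM in OS-LM1, 1.87 and 1.40 in 786-O and 0 and 0 in 786-M1A (log2 fold change 4.90, SE 0.19, adjusted p = 1.5e-06 in OS-LM1). SLC16A9, a monocarboxylate transporter, was at 34.1 and 30.7 CPM in OS-LM1, 0.429 and 0.426 in 786-O and 0 and 0 in 786-M1A, and IGDCC4 at 27.4 and 32.2 CPM in OS-LM1, 0.706 and 0.639 in 786-O and 0 and 0 in 786-M1A. Neither had a count in 786-M1A, where they were at least 13.4-fold and at least 21.02-fold lower than in 786-O. COL4A6, a basement membrane collagen, was at 13.97 and 12.4 CPM in OS-LM1, 0.101 and 0.0947 in 786-O and 0 and 0 in 786-M1A. Its place in 786-M1A rests on 8 counts in 786-O against 0, at least 3.06-fold lower, and that call was lost thinned to equal totals, in log2(TPM + 1) and without any 1 library of 786-O or 786-M1A. FCAMR, a receptor for IgA and IgM, was at 44.9 and 62.02 CPM in OS-LM1, 1.72 and 1.30 in 786-O and 0 and 0.0661 in 786-M1A. MGAT4C and TDRD9 had 786-O levels of 0.101 and 0.118 and 0.151 and 0.0473 CPM and 6.93 and 4.05 and 13.1 and 10.4 in OS-LM1. With 9 and 8 counts in 786-O against 0 in 786-M1A they were at least 3.44-fold and at least 3.06-fold lower there, and both calls were lost thinned to equal totals, in log2(TPM + 1) and without either 786-M1A library, as was that of MGAT4C without either 786-O library and that of TDRD9 without 786-O replicate 1. The calls of SLC16A9 and IGDCC4 in 786-M1A were lost in log2(TPM + 1). TEKT4P2 is a pseudogene with similar copies, and its values are uncertain.

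Lower in OS-LM1 and higher in 786-M1A was COL6A3, a chain of type VI collagen, at 2.53 and 1.54 CPM in OS-LM1, 45.5 and 42.5 in 786-O and 1156 and 1229.9 in 786-M1A. Its log2 fold changes were -4.38 (SE 0.19, adjusted p = 9.1e-07) and 4.76 (SE 0.17, adjusted p = 1.3e-06). GJA1, connexin 43, was at 10.9 and 7.18 CPM in OS-LM1, 35.3 and 38.5 in 786-O and 190.2 and 190.3 in 786-M1A (log2 fold change -2.01, SE 0.17, adjusted p = 3.3e-05 in OS-LM1), so that the connexin genes GJB2 and GJA1 differed in direction in OS-LM1. CHRDL1, a BMP antagonist, was at 0.186 and 0.0570 CPM in OS-LM1, 15.01 and 16.05 in 786-O and 75.7 and 78.3 in 786-M1A. FOXD1, a transcription factor of the renal stroma, was at 2.46 and 2.22 CPM in OS-LM1, 9.31 and 9.99 in 786-O and 40.1 and 42.1 in 786-M1A. The ephrin EFNB2 was at 1.83 and 2.22 CPM in OS-LM1, 24.2 and 23.8 in 786-O and 70.8 and 72.3 in 786-M1A, and CPE, carboxypeptidase E, at 3.65 and 3.14 CPM in OS-LM1, 11.9 and 12.7 in 786-O and 90.3 and 94.3 in 786-M1A. KCNQ5, a potassium channel, and PITPNM3 had log2 fold changes of -4.54 and -2.09 in OS-LM1 and of 1.78 and 1.94 in 786-M1A. Genes called in OS-LM1 against both other lines in one direction, with 786-M1A within 0.25 of 786-O on the log2 scale, numbered 1611 higher and 2276 lower; GLUL, PHGDH and STS were among them.

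The genes that control HIF differed between the lines. HIF1A was at 48.7 and 52.8 CPM in OS-LM1, 13.7 and 15.1 in 786-O and 7.07 and 7.76 in 786-M1A (log2 fold change 1.81, SE 0.11, adjusted p = 5.8e-06), and 786-M1A lay on the opposite side (-0.96, adjusted p = 5.6e-04). EPAS1 was at 185 and 131 CPM in OS-LM1, 136 and 135 in 786-O and 209 and 206 in 786-M1A, and the OS-LM1 libraries overlapped those of 786-O (0.23, adjusted p = 0.227). It was called higher with the correction for gene length (0.49, adjusted p = 0.00457) and without OS-LM1 replicate 2 (0.46, adjusted p = 4.2e-07). VHL itself was at 88.1 and 101 CPM in OS-LM1, 67.2 and 68.1 in 786-O and 55.9 and 56.4 in 786-M1A (0.48, adjusted p = 0.00380), which says nothing of the protein. Among the hydroxylases that mark HIF, EGLN3 was at 354 and 342 CPM in OS-LM1, 91.1 and 91.96 in 786-O and 263 and 251 in 786-M1A (1.93) and EGLN2 at 67.2 and 70.5 CPM in OS-LM1 against 29.8 and 35.3 in 786-O (1.08). HIF1AN, the asparagine hydroxylase, was lower (-0.80). The partner ARNT was lower in OS-LM1 (-0.73, adjusted p = 0.00295) and ARNT2 higher (1.06, adjusted p = 2.3e-04). Of the 10 genes of this core, 6 were higher and 2 lower, against 30.4% and 33.3% of all genes.

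HIF target genes were mostly higher in OS-LM1. 24 of 30 tested members were called higher and 2 lower, against 30.4% and 33.3% of all genes, and their median log2 fold change was 0.82 (0.64 to 0.95 over the alternative settings). In 786-M1A 17 higher and 4 lower were called, with a median of 0.46, against 14.7% and 16.3% of all genes. 786-M1A lay on the OS-LM1 side for 17 of them, 16 higher and 1 lower, and on the opposite side for 3. Of all genes tested, 12.4% were on the OS-LM1 side and 8.94% on the opposite side. CA9, carbonic anhydrase 9, a surface marker of clear cell carcinoma, was at 21.5 and 24.6 CPM in OS-LM1, 0.151 and 0.0237 in 786-O and 0.0412 and 0 in 786-M1A (log2 fold change 8.01, SE 0.40, adjusted p = 1.8e-06). Over both libraries of a line this rests on 1007, 7 and 2 counts, and OS-LM1 also differed from 786-M1A (adjusted p = 1.2e-06). Outside this list, NDUFA4L2, a mitochondrial protein that is a marker of this tumour and is induced under hypoxia, was at 59.1 and 93.2 CPM in OS-LM1, 0.101 and 0.0947 in 786-O and 0.371 and 0.0661 in 786-M1A (9.55, adjusted p = 1.6e-06). LOX, the collagen crosslinking enzyme, was at 45.6 and 38.7 CPM in OS-LM1, 2.40 and 2.46 in 786-O and 29.6 and 31.7 in 786-M1A, and STC2, a secreted glycoprotein, at 171 and 149.8 CPM in OS-LM1, 25.6 and 23.3 in 786-O and 81.3 and 79.6 in 786-M1A. Both were higher in each metastatic line. HILPDA, a lipid droplet protein, was at 77.4 and 102 CPM in OS-LM1, 15.3 and 16.2 in 786-O and 23.1 and 24.5 in 786-M1A (2.51 and, in 786-M1A, 0.60). The 2 targets that were lower were INHBB, an activin subunit, at 2.65 and 2.51 CPM in OS-LM1, 39.4 and 38.4 in 786-O and 115 and 108 in 786-M1A, and NDRG1, a stress response gene, at 271 and 216 CPM in OS-LM1, 755 and 706 in 786-O and 503 and 463 in 786-M1A.

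The upstream sequence of CA9 is shown because this gene separates OS-LM1 from both other lines and carries the motif of HIF. It covers the 250 bases before the RefSeq start on GRCh38.p14, with capitals marking a match to ACGTG or GCGTG on either strand.
CA9 (chr9:35673678-35673927, plus strand): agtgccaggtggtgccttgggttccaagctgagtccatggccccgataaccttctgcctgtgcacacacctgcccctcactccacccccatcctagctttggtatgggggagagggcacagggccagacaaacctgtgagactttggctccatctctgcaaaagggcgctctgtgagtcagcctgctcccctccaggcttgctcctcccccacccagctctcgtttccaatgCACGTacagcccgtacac
The window held 1 match, on the minus strand. Such a match was found in the windows of 18 of the 25 tested HIF targets with a RefSeq window (72%), in 15 of the 20 called higher (75%) and in 55.1% of the 12494 windows of all tested genes. A match describes the letters of the window and not binding.

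CXCR4 was read in both metastatic lines and hardly in 786-O. It was at 3.06 and 5.42 CPM in OS-LM1, 0.0252 and 0.0473 in 786-O and 2.74 and 2.36 in 786-M1A, with 3 counts in 786-O, a ratio of 109-fold (95% counting interval 36.6 to 533) in OS-LM1 (adjusted p = 2.0e-05) and 69.8-fold (95% counting interval 23.6 to 341) in 786-M1A. The metastatic lines did not differ in it at the threshold (OS-LM1 minus 786-M1A 0.71, SE 0.30, adjusted p = 0.0658). CYTIP, in contrast, was at 0.335 and 0.399 CPM in OS-LM1, 0.277 and 0.260 in 786-O and 64.4 and 61.1 in 786-M1A. It did not pass the test in OS-LM1 versus 786-O (log2 fold change 0.42, SE 0.33, adjusted p = 0.433), was 7.85 higher on the log2 scale in 786-M1A, and differed between the metastatic lines by -7.43 (adjusted p = 4.7e-08). Among the cytohesins, the exchange factors that CYTIP binds, CYTH2 was at 131 and 151 CPM in OS-LM1 against 103 and 109 in 786-O (0.41) and CYTH3 at 22.9 and 18.98 CPM in OS-LM1 against 54.7 and 54.6 in 786-O (-1.38). The call of CYTH2 was lost without either 786-O library and in log2(TPM + 1).

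**Figure D2:**
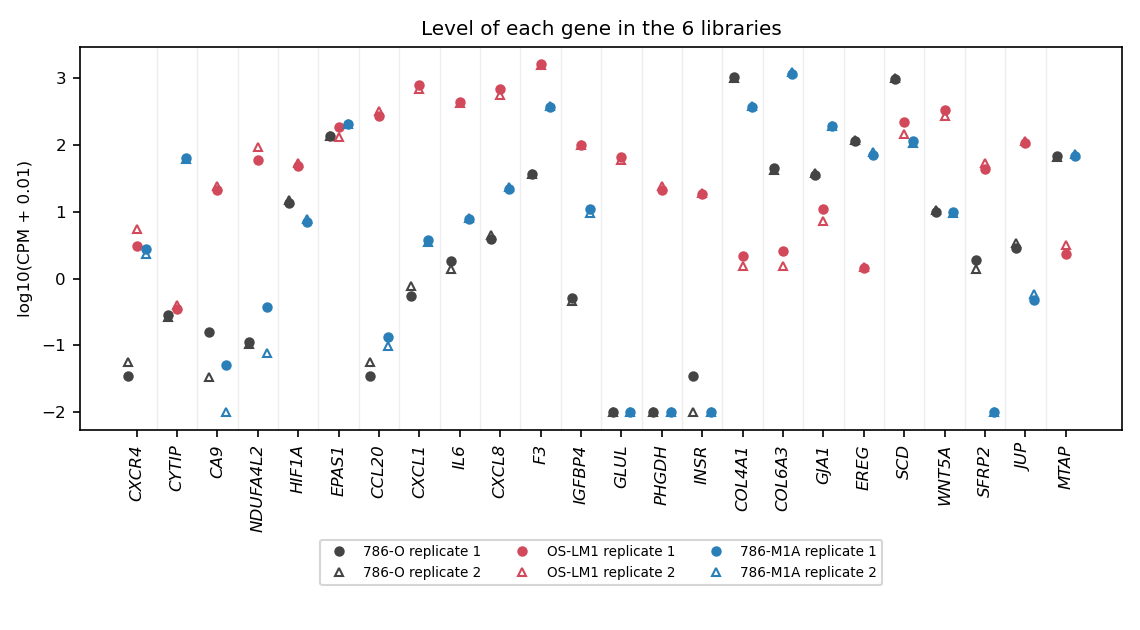
Level of 24 of the named genes in each of the 6 libraries as log10(CPM + 0.01), with circles for replicate 1 and open triangles for replicate 2 of each line; a value of -2 stands for 0 counts. CXCR4 is above 786-O in both metastatic lines and CYTIP in 786-M1A, while CCL20, CXCL1, IL6 and CXCL8 are highest in OS-LM1.

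Targets of NF-kB were mostly higher in OS-LM1. 23 of 29 tested members were called higher and 1 lower, against 30.4% and 33.3% of all genes. Their median log2 fold change was 2.41 (1.73 to 2.51 over the alternative settings). In 786-M1A 13 higher and 6 lower were called (median 0.43), with 12 genes higher in both lines and 4 higher in OS-LM1 and lower in 786-M1A. Of all 16354 genes tested, 890 were higher in both lines and 706 higher in OS-LM1 and lower in 786-M1A. CCL20, the chemokine of the receptor CCR6, was at 267 and 317 CPM in OS-LM1, 0.0252 and 0.0473 in 786-O and 0.124 and 0.0881 in 786-M1A. With 3 counts in 786-O this is a ratio of 7831-fold (95% counting interval 2679 to 37980) (adjusted p = 5.1e-08). CXCL1, a chemokine that attracts neutrophils, was at 777 and 697 CPM in OS-LM1, 0.530 and 0.757 in 786-O and 3.79 and 3.55 in 786-M1A (log2 fold change 10.15, SE 0.19, adjusted p = 5.1e-08). The cytokine IL6 was at 442 and 427 CPM in OS-LM1, 1.84 and 1.40 in 786-O and 7.64 and 8.13 in 786-M1A (log2 fold change 8.07, SE 0.17, adjusted p = 5.1e-08), and CXCL8, interleukin 8, at 698 and 566 CPM in OS-LM1, 3.83 and 4.40 in 786-O and 22.2 and 23.6 in 786-M1A (log2 fold change 7.26, SE 0.18, adjusted p = 7.1e-08). For CXCL1, IL6 and CXCL8, 786-M1A lay between the other lines, with log2 fold changes of 2.50, 2.29 and 2.47 against 786-O. The one member called lower was CX3CL1, fractalkine (-0.58, adjusted p = 0.0138), and its call was lost without 786-O replicate 1.

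Upstream windows of CCL20 and CXCL1 are shown because these chemokines had the largest differences of the list. Capitals mark a match, on either strand, to GGG, any 2 bases and then TTTCC or TTCCC, letters that NF-kB is known to bind, in the 250 bases before the RefSeq start (GRCh38.p14).
CCL20 (chr2:227813592-227813841, plus strand): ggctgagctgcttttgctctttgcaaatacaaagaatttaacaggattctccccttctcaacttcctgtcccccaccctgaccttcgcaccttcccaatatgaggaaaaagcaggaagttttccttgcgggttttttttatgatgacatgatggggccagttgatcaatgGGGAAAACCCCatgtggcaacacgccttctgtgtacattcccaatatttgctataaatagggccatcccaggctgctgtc
CXCL1 (chr4:73869143-73869392, plus strand): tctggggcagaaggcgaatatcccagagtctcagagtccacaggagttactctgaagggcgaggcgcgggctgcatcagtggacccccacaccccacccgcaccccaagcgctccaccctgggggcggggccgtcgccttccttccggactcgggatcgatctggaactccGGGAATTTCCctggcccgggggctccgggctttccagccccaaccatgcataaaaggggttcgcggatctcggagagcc
The window of CCL20 held 2 matches that overlap, and that of CXCL1 held 1. Of the 23 tested members with a window, 12 held one (52.2%), as did 9 of the 19 called higher (47.4%), against 4.03% of the 12494 windows of all tested genes. The list was written from known targets, so a high share belongs to the choice of its members.

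Genes that growth factor signalling through ERK switches on were also mostly higher. Of the early response genes, 18 of 30 tested genes were called higher and 2 lower, against 30.4% and 33.3% of all genes. Their median log2 fold change was 0.92 (0.38 to 0.99 over the alternative settings). In 786-M1A 15 higher and 4 lower were called. DUSP6, a phosphatase that acts on ERK, was at 10.2 and 12.2 CPM in OS-LM1, 1.54 and 1.80 in 786-O and 2.68 and 2.97 in 786-M1A (2.74), and DUSP5 at 19.3 and 22.9 CPM in OS-LM1, 5.20 and 5.18 in 786-O and 10.2 and 8.95 in 786-M1A (2.02). EGR2, a zinc finger factor, was at 7.56 and 7.87 CPM in OS-LM1 against 1.14 and 1.47 in 786-O and PHLDA1 at 130.2 and 113 CPM in OS-LM1 against 37.1 and 35.2 in 786-O. JUNB was slightly lower (-0.35, adjusted p = 0.0358), a call lost without either 786-O library (adjusted p = 0.241 without replicate 1), without either 786-M1A library and under 6 other settings. Among secreted growth factors and their carriers, 20 of 31 tested members were called higher and 6 lower, against the same shares of all genes. Their median log2 fold change was 0.73 (0.24 to 0.77 over the alternative settings). IGFBP5, another carrier of insulin-like growth factors, was at 53.3 and 55.6 CPM in OS-LM1, 0.227 and 0.118 in 786-O and 0.577 and 0.441 in 786-M1A (log2 fold change 8.29, SE 0.22, adjusted p = 7.7e-08), and the heparin-binding factor midkine (MDK) at 48.8 and 68.3 CPM in OS-LM1, 0.807 and 1.06 in 786-O and 1.32 and 1.45 in 786-M1A (5.95). The largest falls named were those of EREG, a ligand of the EGF receptor, at 1.42 and 1.48 CPM in OS-LM1, 115 and 116 in 786-O and 71.5 and 77.8 in 786-M1A (-6.32), and GAS6, the ligand of the TAM receptors, at 2.12 and 3.59 CPM in OS-LM1, 64.3 and 59.97 in 786-O and 96.03 and 90.9 in 786-M1A (-4.49). FGF2 (-0.95) and NRG1 (-0.57) were lower as well, the call of NRG1 not without 786-O replicate 1 or 2. Receptor tyrosine kinases were mixed, as 10 of 32 tested members were called higher and 13 lower, not far from the shares of all genes. Their median log2 fold change was -0.25 (-0.45 to -0.08 over the alternative settings). Beside INSR, EPHB4 was higher (9.31 and 6.90 CPM in OS-LM1 against 1.89 and 2.20 in 786-O), and the ephrin receptor EPHA4 was lower, at 1.12 and 1.14 CPM in OS-LM1 against 27.8 and 27.8 in 786-O (-4.62). FGFR3 was at 5.85 and 6.67 CPM in OS-LM1, 49.9 and 49.1 in 786-O and 5.87 and 4.85 in 786-M1A, lower in both metastatic lines (-2.99 and -3.21). MET, the receptor of hepatocyte growth factor, was at 454 and 283 CPM in OS-LM1, 807 and 786 in 786-O and 1511 and 1601 in 786-M1A, so that 786-M1A lay on the opposite side (-1.11 in OS-LM1 and 0.97 in 786-M1A).

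Genes of sterol and fatty acid synthesis were mostly lower in both metastatic lines. In OS-LM1 2 of 33 tested members were called higher and 28 lower, against 30.4% and 33.3% of all genes. Their median log2 fold change was -1.36 (-1.49 to -1.29 over the alternative settings). In 786-M1A 1 higher and 28 lower were called, with a median of -0.87, and 24 genes were lower in both. Of all 16354 genes tested, 1138 were lower in both. SCD, the stearoyl-CoA desaturase, was at 218 and 147 CPM in OS-LM1, 964 and 1013 in 786-O and 114 and 106 in 786-M1A (log2 fold change -2.43, SE 0.18, adjusted p = 1.4e-05). SQLE, squalene epoxidase, was at 46.9 and 33.98 CPM in OS-LM1, 218 and 221 in 786-O and 159 and 158 in 786-M1A (-2.44), and the desaturase FADS2 at 80.4 and 66.1 CPM in OS-LM1, 423 and 415 in 786-O and 228 and 218 in 786-M1A (-2.51). STARD4, which moves cholesterol between membranes, was at 9.61 and 5.47 CPM in OS-LM1 against 39.7 and 41.2 in 786-O. The 2 members called higher were ACSS2, which makes acetyl-CoA from acetate, at 43.3 and 52.5 CPM in OS-LM1, 25.5 and 26.1 in 786-O and 19.2 and 18.9 in 786-M1A (0.89), and SREBF1, a transcription factor of this pathway, at 105 and 122 CPM in OS-LM1, 87.8 and 83.8 in 786-O and 23.98 and 20.6 in 786-M1A (0.40, adjusted p = 0.0165). For both of these, 786-M1A lay on the opposite side, for ACSS2 not without 786-O replicate 1 or 2. The call of SREBF1 was lost without either 786-O library and in log2(TPM + 1).

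Interferon-stimulated genes were mostly lower in OS-LM1. In that list 8 of 45 tested members were called higher and 28 lower, against 30.4% and 33.3% of all genes. Their median log2 fold change was -0.85 (-0.91 to -0.66 over the alternative settings). In 786-M1A 3 higher and 22 lower were called (median -0.43). Lower in both lines were 15 genes, and 0 higher in both, against 1138 and 890 of all 16354 genes tested. SAMD9L, an antiviral effector, was at 1.86 and 1.82 CPM in OS-LM1, 46.7 and 49.5 in 786-O and 49.5 and 59.4 in 786-M1A (log2 fold change -4.70, SE 0.16, adjusted p = 2.4e-07), and it did not pass the test in 786-M1A (0.18, adjusted p = 0.269). RSAD2, viperin, was at 0.633 and 0.513 CPM in OS-LM1, 7.77 and 7.74 in 786-O and 1.195 and 1.32 in 786-M1A, HERC5 at 1.16 and 0.912 CPM in OS-LM1, 13.6 and 17.4 in 786-O and 4.97 and 5.46 in 786-M1A and IFI44L at 0.261 and 0.513 CPM in OS-LM1, 6.89 and 5.61 in 786-O and 1.61 and 2.60 in 786-M1A, lower in both lines. Members called higher included IFI27, at 91.99 and 107 CPM in OS-LM1, 5.73 and 4.26 in 786-O and 0.433 and 0.595 in 786-M1A (4.32), and IFITM1, which blocks viral entry, at 11.96 and 17.2 CPM in OS-LM1, 0.404 and 0.142 in 786-O and 0.227 and 0.419 in 786-M1A (5.73). OAS2 and the factor IRF7 were also higher (2.20 and 1.44). Of the MHC class I and peptide loading genes, 3 of 17 tested members were called higher and 7 lower, against the same shares of all genes. The class I heavy chain HLA-B was at 73.2 and 78.6 CPM in OS-LM1, 342 and 321 in 786-O and 404 and 406 in 786-M1A (-2.13), and HLA-C at 85.2 and 95.7 CPM in OS-LM1 against 258 and 233 in 786-O. HLA-F was higher (26.2 and 25.8 CPM in OS-LM1 against 6.36 and 7.90 in 786-O). Reads of HLA genes can be split among near-identical copies, so these values are uncertain. CD74, the invariant chain of class II, was at 90.6 and 116 CPM in OS-LM1, 18.97 and 15.97 in 786-O and 1.40 and 1.61 in 786-M1A, on opposite sides in the metastatic lines. Of the 7 tested class II genes, 2 were higher and 2 lower.

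Cell cycle genes were more often lower than higher in OS-LM1. Of the replication and mitosis genes, 6 of 34 tested members were called higher and 19 lower, against 30.4% and 33.3% of all genes. Their median log2 fold change was -0.55 (-0.70 to -0.43 over the alternative settings). In 786-M1A 8 higher and 0 lower were called, against 14.7% and 16.3% of all genes. Among those higher were PCNA, the sliding clamp of DNA replication, at 494 and 451 CPM in OS-LM1, 197 and 193 in 786-O and 195 and 196 in 786-M1A (log2 fold change 1.28, SE 0.10, adjusted p = 2.2e-05), and GINS1, a part of the replicative helicase (1.19). TK1, thymidine kinase, was at 196 and 216 CPM in OS-LM1 against 153 and 138 in 786-O (0.50), and its call was lost without 786-O replicate 2. Among those lower were CCNA2, cyclin A2, at 60.4 and 38.4 CPM in OS-LM1, 154 and 151 in 786-O and 139.5 and 144 in 786-M1A (-1.62), the mitotic kinase PLK1, at 75.6 and 58.8 CPM in OS-LM1, 185 and 174 in 786-O and 235 and 212 in 786-M1A (-1.41), and TOP2A, a topoisomerase, at 389.7 and 290.1 CPM in OS-LM1, 913 and 896 in 786-O and 679.6 and 714 in 786-M1A (-1.41). The E cyclins differed in direction, with CCNE1 at 15.9 and 16.1 CPM in OS-LM1 against 10.2 and 8.61 in 786-O and CCNE2 at 17.03 and 14.3 CPM in OS-LM1 against 42.4 and 42.8 in 786-O.

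Tumour suppressors of renal carcinoma were more often lower in OS-LM1, since 2 of 16 tested members were called higher and 9 lower. Of all genes, 30.4% were called higher and 33.3% lower. Their median log2 fold change was -0.55 (-0.68 to -0.32 over the alternative settings), and the value nearest to 0 was that with the correction for gene length. PBRM1, a chromatin remodelling subunit often mutated in this tumour, was at 45.5 and 29.3 CPM in OS-LM1, 84.8 and 84.98 in 786-O and 85.9 and 87.4 in 786-M1A (-1.18, adjusted p = 6.7e-04). ARID1A was at 84.2 and 68.98 CPM in OS-LM1 against 163 and 150.2 in 786-O (-1.03) and STAG2, of the cohesin complex, at 118 and 85.00 CPM in OS-LM1 against 189 and 185 in 786-O. MTAP, an enzyme of methionine salvage that neighbours CDKN2A, was at 2.35 and 3.14 CPM in OS-LM1, 68.3 and 66.6 in 786-O and 69.1 and 72.7 in 786-M1A (log2 fold change -4.65, SE 0.15, adjusted p = 1.9e-07). CDKN2A and CDKN2B had 0 counts in all 6 libraries. NF2 was slightly higher in both lines (0.35 and 0.36), and neither call held without any 1 library of 786-O or 786-M1A. The OS-LM1 call was also lost in log2(TPM + 1), and that of 786-M1A with the replicate block and thinned to equal totals.

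Transcription factors of the renal lineage were present in both lines at different levels. PAX8, which marks renal epithelium, was at 388 and 499 CPM in OS-LM1, 169 and 160.5 in 786-O and 175 and 159 in 786-M1A (log2 fold change 1.43, SE 0.14, adjusted p = 6.2e-05). Its relative PAX2 was at 40.98 and 56.1 CPM in OS-LM1, 24.2 and 24.4 in 786-O and 4.12 and 3.86 in 786-M1A, higher in OS-LM1 (0.99) and lower in 786-M1A (-2.61). WT1, a factor of the early kidney and the podocyte, was at 1.08 and 0.741 CPM in OS-LM1, 20.3 and 20.02 in 786-O and 46.7 and 49.6 in 786-M1A, and SIM1 at 0.671 and 0.342 CPM in OS-LM1, 10.3 and 10.4 in 786-O and 6.04 and 4.91 in 786-M1A. Of the 20 tested members of this list 8 were higher and 9 lower, against 30.4% and 33.3% of all genes. The sign of the median changed under 4 settings. Of the proximal tubule genes, 9 of 26 tested members were called higher and 12 lower, against the same shares of all genes. Their median log2 fold change was -0.98 (-1.19 to -0.34 over the alternative settings). In 786-M1A 5 higher and 13 lower were called (median -1.04), against 14.7% and 16.3% of all genes. ANPEP, a brush border aminopeptidase, was at 436 and 410.0 CPM in OS-LM1, 41.8 and 43.6 in 786-O and 21.7 and 21.7 in 786-M1A (3.31), and SLC3A1, part of a cystine transporter, at 15.8 and 11.4 CPM in OS-LM1, 0.252 and 0.426 in 786-O and 0.536 and 0.419 in 786-M1A. SLC28A1, a nucleoside transporter, was at 10.3 and 11.2 CPM in OS-LM1 and had 0 counts in 786-O, at least 290.3-fold higher. The kidney cadherins were lower: CDH6 was at 98.1 and 76.3 CPM in OS-LM1, 583 and 605 in 786-O and 285 and 310.1 in 786-M1A (-2.77) and CDH16 at 6.78 and 8.44 CPM in OS-LM1, 20.99 and 19.4 in 786-O and 2.47 and 2.09 in 786-M1A (-1.42). Of the distal nephron and collecting duct genes 8 of 20 could be tested, 3 were higher and 1 lower. No member reached a mean of 5 CPM in OS-LM1 or 786-O, so these calls concern low levels. The list summed to 6.30 and 8.84 CPM in OS-LM1 and 8.27 and 7.41 in 786-O.

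Epithelial junction and keratin genes moved both ways. Of 28 tested members, 11 were called higher and 6 lower, against 30.4% and 33.3% of all genes. CDH1, E-cadherin, was at 10.1 and 7.75 CPM in OS-LM1, 1.94 and 1.54 in 786-O and 1.13 and 1.04 in 786-M1A (log2 fold change 2.36, SE 0.23, adjusted p = 5.8e-05). JUP, plakoglobin, was at 105 and 114 CPM in OS-LM1, 2.83 and 3.41 in 786-O and 0.474 and 0.573 in 786-M1A, higher in OS-LM1 and lower in 786-M1A, and KRT19 at 405 and 457 CPM in OS-LM1, 26.8 and 25.98 in 786-O and 225 and 209.7 in 786-M1A, higher in both. KRT81 and the claudin CLDN7 were higher in OS-LM1, at 27.9 and 28.7 CPM in OS-LM1 against 0.0757 and 0.355 in 786-O and at 4.62 and 5.99 CPM in OS-LM1 against 0.0252 and 0.0947 in 786-O, and did not pass the test in 786-M1A. The epithelial factor ELF3 was at 77.2 and 85.5 CPM in OS-LM1, 152 and 153 in 786-O and 14.9 and 14.8 in 786-M1A, lower in both lines and less so in OS-LM1 (difference between them 2.45, adjusted p = 7.0e-07). Of the mesenchymal genes, 6 of 18 tested genes were called higher and 5 lower, near the 30.4% and 33.3% of all genes. The sign of their median changed under 3 settings. TAGLN and ACTA2, smooth muscle actin-binding protein and actin, were at 36.8 and 35.9 CPM in OS-LM1, 1.69 and 1.54 in 786-O and 1.05 and 1.52 in 786-M1A and at 45.7 and 47.3 CPM in OS-LM1, 7.95 and 6.84 in 786-O and 10.2 and 10.4 in 786-M1A. TNC, tenascin C, was at 219 and 156 CPM in OS-LM1, 26.03 and 23.7 in 786-O and 158 and 155 in 786-M1A, higher in both lines. VIM, vimentin, was at 5439.6 and 5193 CPM in OS-LM1, 4727 and 4366 in 786-O and 8072 and 7985 in 786-M1A (0.23, adjusted p = 0.0565), and it passed the threshold under 6 of the 15 alternative settings. Fibronectin (FN1) was at 1372 and 847 CPM in OS-LM1 against 1688 and 1621 in 786-O, and its call (-0.58, adjusted p = 0.0322) was lost with the correction for gene length (-0.25, adjusted p = 0.131) and without either 786-O library.

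Matrix genes moved in both directions, as did all genes, of which 30.4% were called higher and 33.3% lower. Of the collagens, 12 of 23 tested genes were called higher and 6 lower, and their median log2 fold change was 0.94 (0.17 to 1.25 over the alternative settings). The paired basement membrane chains COL4A1, at 2.20 and 1.54 CPM in OS-LM1, 1028 and 987 in 786-O and 369.8 and 387 in 786-M1A (log2 fold change -9.04, SE 0.18, adjusted p = 5.1e-08), and COL4A2, at 14.8 and 15.6 CPM in OS-LM1, 879 and 809 in 786-O and 531 and 531 in 786-M1A (-5.79), were lower, and lower in 786-M1A as well (-1.41 and -0.67), while COL4A6 was higher in OS-LM1. COL12A1 was at 87.2 and 47.3 CPM in OS-LM1, 2.32 and 2.11 in 786-O and 6.28 and 7.16 in 786-M1A and COL5A2 at 124 and 86.8 CPM in OS-LM1, 9.51 and 9.04 in 786-O and 6.04 and 5.84 in 786-M1A. For both, replicate 1 of OS-LM1 was above replicate 2, and both were above 786-O. Among laminins, nidogens and integrins, 13 of 31 tested members were called higher and 9 lower. NID1, nidogen, was at 125 and 75.6 CPM in OS-LM1, 4.26 and 4.83 in 786-O and 4.10 and 4.69 in 786-M1A (4.47), and its relative NID2 at 0.857 and 0.684 CPM in OS-LM1, 5.35 and 6.01 in 786-O and 14.4 and 14.9 in 786-M1A (-2.85), so that the nidogens differed in direction. LAMB3 was higher (272 and 229 CPM in OS-LM1 against 40.8 and 34.1 in 786-O) and LAMA3 lower (42.9 and 42.2 CPM in OS-LM1 against 246 and 247 in 786-O), although their proteins are partners in laminin 332. The integrin ITGB3 was at 116 and 41.6 CPM in OS-LM1, 201 and 202 in 786-O and 78.97 and 76.6 in 786-M1A, and its call (-1.35, adjusted p = 0.0164) was lost without a filter on low counts. Of the matrix proteases and inhibitors, 11 of 27 tested members were called higher and 11 lower. PLAT, tissue plasminogen activator, was at 21.5 and 23.5 CPM in OS-LM1, 0.353 and 0.166 in 786-O and 0.701 and 0.617 in 786-M1A (6.43), and PLAUR, the urokinase receptor, at 76.9 and 81.7 CPM in OS-LM1, 17.6 and 15.2 in 786-O and 47.4 and 48.6 in 786-M1A (2.27). The collagenase MMP13 was at 0.559 and 0.627 CPM in OS-LM1, 18.2 and 21.5 in 786-O and 2.84 and 2.29 in 786-M1A (-5.07). TIMP1 was higher (175 and 251 CPM in OS-LM1 against 58.7 and 55.2 in 786-O) and TIMP2 lower (37.7 and 30.6 CPM in OS-LM1 against 202 and 194 in 786-O), both being inhibitors of matrix metalloproteinases. MMP16 had 0 counts in OS-LM1 and 5.27 and 5.42 CPM in 786-O.

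F3, tissue factor, which starts coagulation, was at 1601 and 1554 CPM in OS-LM1, 36.3 and 37.2 in 786-O and 372 and 384 in 786-M1A (log2 fold change 5.42, SE 0.12, adjusted p = 5.1e-08), and was 3.36 higher on the log2 scale in 786-M1A. Of the 28 tested coagulation and complement genes, 14 were higher and 10 lower, against 30.4% and 33.3% of all genes. C1R, a complement protease, was at 59.6 and 55.9 CPM in OS-LM1, 1.56 and 1.42 in 786-O and 1.03 and 1.12 in 786-M1A, and F2RL1, a protease-activated receptor, at 144 and 113 CPM in OS-LM1, 9.18 and 8.28 in 786-O and 1.90 and 2.60 in 786-M1A. CFI, complement factor I, was at 1.42 and 1.25 CPM in OS-LM1, 58.8 and 61.98 in 786-O and 1.03 and 0.903 in 786-M1A, lower in both metastatic lines, which did not differ at the threshold (adjusted p = 0.0676). Complement C5 and the regulator CD55 were at 0.186 and 0.228 CPM in OS-LM1, 18.7 and 16.6 in 786-O and 23.2 and 24.9 in 786-M1A and at 0.261 and 0.171 CPM in OS-LM1, 18.5 and 17.2 in 786-O and 18.9 and 19.9 in 786-M1A, lower in OS-LM1 (-6.42 and -6.29).

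Calls in the WNT and Notch pathways (13 higher and 12 lower of 36) were near the 30.4% and 33.3% of all genes. Their median of -0.05 became 0.14 with the correction for gene length. WNT5A, a ligand of the noncanonical pathway, was at 336 and 271 CPM in OS-LM1, 9.81 and 10.7 in 786-O and 9.79 and 9.70 in 786-M1A (log2 fold change 4.88, SE 0.15, adjusted p = 1.6e-07). The receptor FZD8 was at 51.9 and 54.3 CPM in OS-LM1, 5.83 and 5.68 in 786-O and 24.1 and 23.1 in 786-M1A, and LEF1, a nuclear effector, at 0.224 and 0.114 CPM in OS-LM1, 9.71 and 9.47 in 786-O and 0.103 and 0.0881 in 786-M1A, lower in both metastatic lines. WNT7B was lower (2.61 and 3.93 CPM in OS-LM1, 20.9 and 19.8 in 786-O and 46.3 and 43.7 in 786-M1A) and WNT3 higher (19.2 and 17.7 CPM in OS-LM1, 2.35 and 3.41 in 786-O and 0.577 and 0.375 in 786-M1A), each with 786-M1A on the opposite side. In the TGF-beta and activin pathway, 8 of 32 tested members were called higher and 11 lower, not far from the shares of all genes. SMAD3, a signal transducer, was at 946 and 860.4 CPM in OS-LM1, 202 and 189 in 786-O and 128 and 124 in 786-M1A (log2 fold change 2.21, SE 0.11, adjusted p = 1.7e-06), and noggin (NOG), a BMP antagonist, at 15.3 and 18.98 CPM in OS-LM1, 1.49 and 1.25 in 786-O and 0.907 and 0.705 in 786-M1A. ID3, a BMP target, was at 62.6 and 66.1 CPM in OS-LM1 against 187 and 176 in 786-O (-1.50). Of the YAP and TAZ targets, 8 of 20 tested members were called higher and 7 lower, against the same shares of all genes. Their median of -0.14 became 0.10 with the correction for gene length. CYR61 was at 1335 and 1308 CPM in OS-LM1 against 399 and 378 in 786-O (1.77), and ANKRD1 at 10.4 and 8.15 CPM in OS-LM1 against 23.1 and 19.8 in 786-O (-1.199). Among the HOX genes, 7 of 33 tested members were called higher and 13 lower, not far from the 30.4% and 33.3% of all genes. HOXC10 was at 33.8 and 29.8 CPM in OS-LM1, 7.87 and 8.76 in 786-O and 3.75 and 3.61 in 786-M1A (1.94), and HOXB9 at 9.43 and 10.6 CPM in OS-LM1, 55.7 and 57.3 in 786-O and 36.2 and 34.5 in 786-M1A (-2.50).

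Metabolic genes other than those of lipid synthesis moved in both directions, as did all genes (30.4% called higher and 33.3% lower). Of the glycolysis genes, 10 of 23 tested members were called higher and 9 lower. ENO3, an enolase of muscle, was at 19.7 and 27.02 CPM in OS-LM1, 1.59 and 1.35 in 786-O and 1.05 and 0.903 in 786-M1A, and ALDOC, an aldolase, at 18.7 and 20.6 CPM in OS-LM1, 2.04 and 2.93 in 786-O and 3.05 and 2.75 in 786-M1A. The phosphofructokinase PFKL and the isomerase GPI were lower (-1.30 and -1.01), and hexokinase HK2 was higher in both metastatic lines (0.79 and 0.68), in 786-M1A not without 786-O replicate 2. Of the respiratory chain and ATP synthase genes, 12 of 35 tested members were called higher and 11 lower, near the shares of all genes. COX7B was at 123 and 139 CPM in OS-LM1 against 63.8 and 67.1 in 786-O and NDUFA1 at 113 and 132 CPM in OS-LM1 against 68.9 and 68.03 in 786-O, both higher, while NDUFS1 was at 43.96 and 30.3 CPM in OS-LM1 against 133 and 131 in 786-O (-1.82). Beside GLUL and PHGDH, the ATF4 and serine synthesis list gave 11 higher and 10 lower of 25, and the median of 0.06 became -0.05 with the correction for gene length. ALDH1L2, a mitochondrial folate enzyme, was higher in both lines (12.4 and 8.38 CPM in OS-LM1, 1.44 and 0.757 in 786-O and 9.07 and 9.12 in 786-M1A), and the cystine transporter SLC7A11 lower in both (35.5 and 21.9 CPM in OS-LM1, 66.8 and 69.6 in 786-O and 24.99 and 28.01 in 786-M1A). Cystathionine synthase CBS was at 7.23 and 9.01 CPM in OS-LM1, 28.9 and 31.9 in 786-O and 5.56 and 5.51 in 786-M1A (-1.92). Of the NRF2 and detoxification genes, 11 of 30 tested members were called higher and 10 lower, not far from the shares of all genes. HMOX1, heme oxygenase, was at 105 and 113 CPM in OS-LM1 against 28.2 and 27.7 in 786-O (1.96), and the drug exporters differed, with ABCC2 at 67.4 and 75.4 CPM in OS-LM1, 8.68 and 8.02 in 786-O and 2.82 and 2.82 in 786-M1A and ABCB1 at 4.84 and 4.56 CPM in OS-LM1, 52.8 and 51.2 in 786-O and 7.83 and 7.89 in 786-M1A. ALDH1A1 was at 161 and 156 CPM in OS-LM1, 945 and 958 in 786-O and 125.7 and 131 in 786-M1A, lower in both lines.

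Calls of chaperone genes went in both directions and lay near the shares of all genes. In the joint list of the unfolded protein response and heat shock, 8 of 27 tested members were called higher and 10 lower. Of all genes, 30.4% were called higher and 33.3% lower. The median of the list, -0.15, became 0.09 with the correction for gene length. HSPD1, a mitochondrial chaperone, was at 521 and 441 CPM in OS-LM1, 1294 and 1303 in 786-O and 1588 and 1689.7 in 786-M1A (-1.43), and HSP90AA1 at 850.1 and 492 CPM in OS-LM1, 1894 and 1923 in 786-O and 2604 and 2741 in 786-M1A (-1.51). HSPA8 was at 937 and 423 CPM in OS-LM1, 1898 and 1845 in 786-O and 2594 and 2649.6 in 786-M1A, with a gap between the OS-LM1 libraries themselves, and its call (-1.46, adjusted p = 0.00314) was lost without a filter on low counts. CRYAB, a small heat shock protein, was at 73.6 and 67.4 CPM in OS-LM1, 0.706 and 0.923 in 786-O and 6.80 and 7.18 in 786-M1A (6.43), and SDF2L1, of the endoplasmic reticulum, at 37.5 and 47.8 CPM in OS-LM1 against 13.4 and 11.4 in 786-O. Metallothioneins, which bind zinc and copper, have near-identical copies, and their values are uncertain. MT2A was at 367 and 485 CPM in OS-LM1, 142 and 123 in 786-O and 226 and 212 in 786-M1A, and MT1E at 0.0373 and 0.0570 CPM in OS-LM1, 52.3 and 47.7 in 786-O and 113 and 105 in 786-M1A. Of 5 tested metallothioneins 3 were higher and 1 lower, and their median of 0.73 became 0.11 with the correction for gene length.

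Germ cell genes of the cancer-testis group were more often called higher than lower, 7 and 2 of 14 tested genes. Of all genes, 30.4% were called higher and 33.3% lower. Their median log2 fold change was 1.69 (0.50 to 3.59 over the alternative settings). A mean of 5 CPM was reached by only 3 members in OS-LM1 and 2 in 786-O, so the median is largely one of genes at low levels. The list summed to 53.91 and 54.95 CPM in OS-LM1 and 55.55 and 56.16 in 786-O. MAGEA12 was at 9.13 and 8.44 CPM in OS-LM1 and had 0 counts in the other 4 libraries, and MAGEA3 was at 5.25 and 4.96 CPM in OS-LM1, 0.681 and 0.213 in 786-O and 0 and 0 in 786-M1A, though reads of the MAGEA family can be split among copies. PRAME was at 29.7 and 29.2 CPM in OS-LM1 against 38.9 and 39.7 in 786-O (-0.42, adjusted p = 0.00821), a call lost without 786-O replicate 1 or 2. Of the imprinted genes, 6 of 14 were higher and 4 lower, and their median of 0.33 became 0.06 with the correction for gene length. ZDBF2 was at 0.410 and 0.855 CPM in OS-LM1, 18.8 and 20.2 in 786-O and 17.6 and 21.1 in 786-M1A (-5.03), PEG10 at 772 and 466 CPM in OS-LM1, 1390.4 and 1373 in 786-O and 1577 and 1608 in 786-M1A (-1.16) and PLAGL1 at 83.3 and 101 CPM in OS-LM1 against 47.7 and 49.8 in 786-O (0.92).

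**Figure D3:**
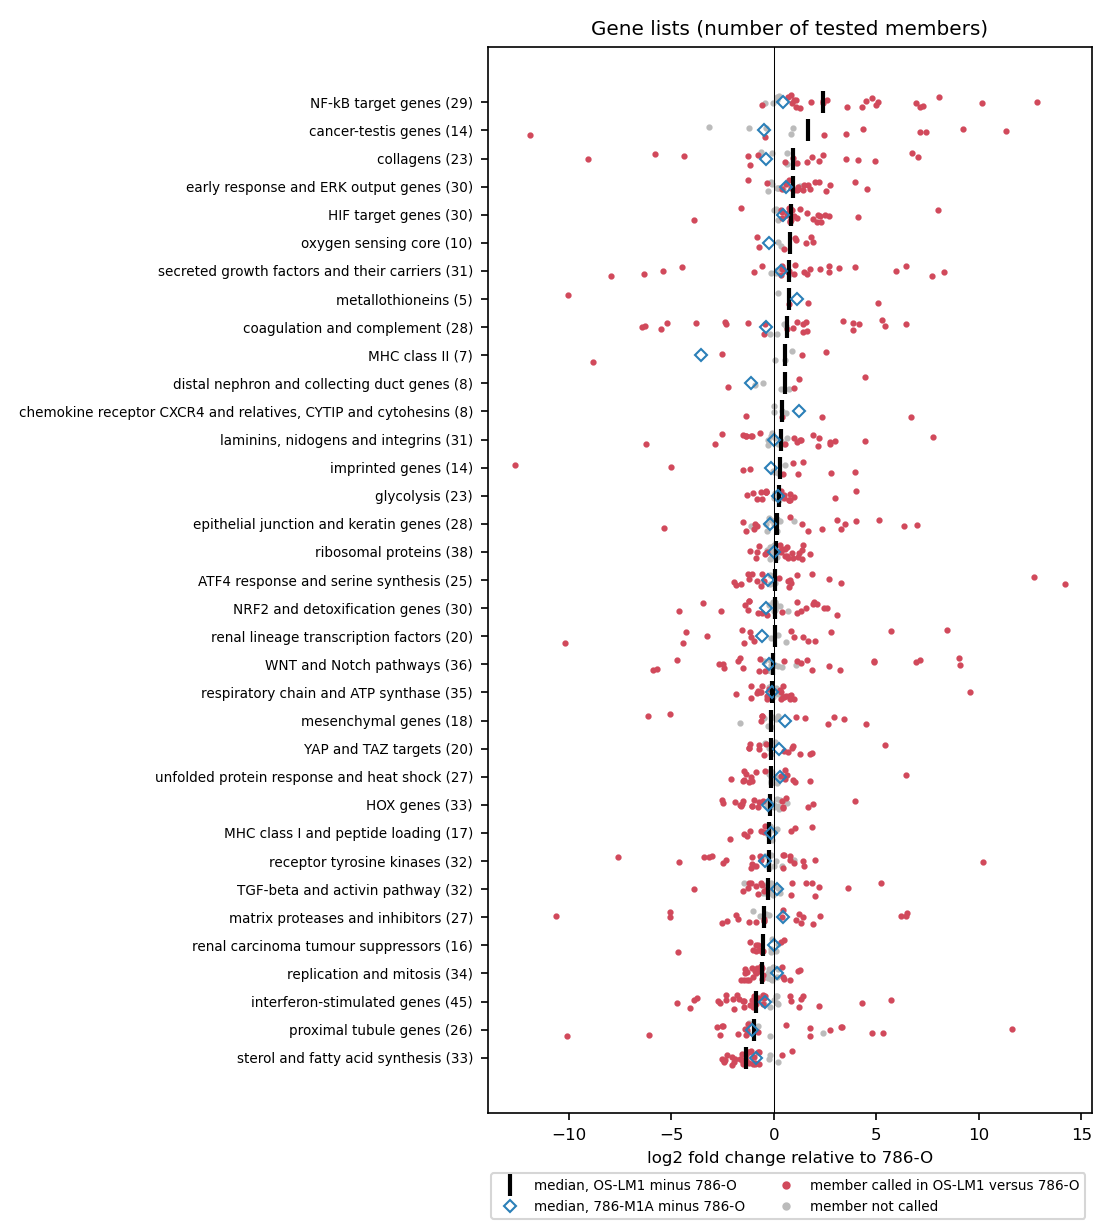
Log2 fold change of each tested member of the gene lists on the vertical axis in OS-LM1 versus 786-O (points, red where called), with the list median as a bar and the median in 786-M1A versus 786-O as a diamond. NF-kB targets have a median of 2.41, and sterol and fatty acid synthesis genes one of -1.36.

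Differences also followed chromosomes. A chromosome could be assigned from RefSeq to 15825 of the tested genes. The median log2 fold change of the genes of a chromosome in OS-LM1 was -0.66 on chromosome 8, -0.63 on 4, -0.48 on 21 and -0.41 on 9. It was 0.56 on chromosome 20, 0.52 on 13, 0.44 on 22 and 0.36 on 15. On chromosome 8, 55% of 540 genes were called lower and 20.4% higher, and on chromosome 20, 53.9% of 429 were called higher and 17.02% lower. Of all tested genes, 33.3% were called lower and 30.4% higher. In 786-M1A the medians of chromosomes 8 and 20 were 0.03 and -0.02, and those farthest from 0 were 0.30 on chromosome 22, -0.30 on 15 and -0.27 on 17. Both OS-LM1 libraries had the same sign on each of these chromosomes, and with the correction for gene length the medians of chromosomes 8 and 20 were -0.63 and 0.59. Copy number was not measured, and its part was not tested.

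Ribosomal protein genes, which cells use together, differed by chromosome. In all, 17 of 38 tested genes were called higher and 6 lower, against 30.4% and 33.3% of all genes. The sign of their median (0.10) turned with the correction for gene length (-0.27) and in log2(TPM + 1). Each of the 6 on chromosome 19 was called higher, with a median of 1.36, and each of the 4 on chromosome 8 was called lower, with a median of -0.84. In 786-M1A the medians of these groups were -0.03 and 0.10. These chromosomes have the highest and lowest medians of the list, and most others hold few of its genes. Over all 1123 tested genes of chromosome 19 the median in OS-LM1 was only 0.26, with 41.3% called higher and 29.4% lower. RPS19 on chromosome 19 was at 1155 and 1456 CPM in OS-LM1, 398 and 382 in 786-O and 373 and 344 in 786-M1A (log2 fold change 1.74, SE 0.13, adjusted p = 1.7e-05), and RPL18 at 670.2 and 874 CPM in OS-LM1 against 299 and 285 in 786-O. RPL7 on chromosome 8 was at 557 and 491 CPM in OS-LM1, 1165 and 1143 in 786-O and 1252 and 1268 in 786-M1A (log2 fold change -1.14, SE 0.10, adjusted p = 4.4e-05), and RPL8 at 594 and 664 CPM in OS-LM1 against 1197 and 1115 in 786-O. Processed pseudogenes of these genes can take part of their reads.

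**Figure D4:**
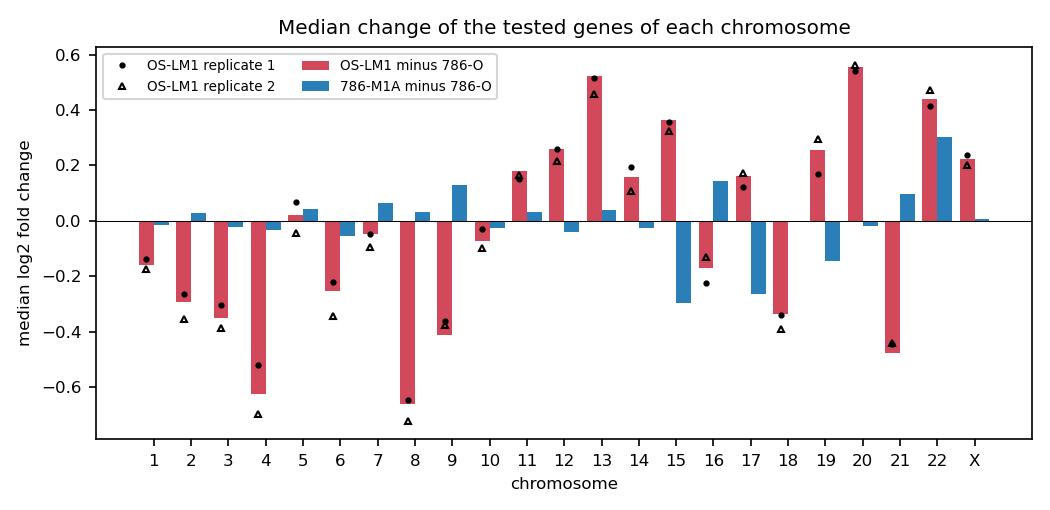
Median log2 fold change of the tested genes of each chromosome in OS-LM1 (red) and 786-M1A (blue) versus 786-O, with points for each OS-LM1 replicate as log2((CPM + 0.1)/(mean 786-O CPM + 0.1)). Chromosomes 8 and 4 lie lowest and 20 and 13 highest in OS-LM1, and in 786-M1A the median farthest from 0 is 0.30, on chromosome 22.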

How the data were processed

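Gene-level RSEM output of 6 poly(A) libraries, 2 each of 786-O, OS-LM1 and 786-M1A, was used. The authors deposited expected counts and TPM per gene from Bowtie2 and RSEM on hg19, per the submitters' processing notes; the sources used here give no versions, annotation or strand setting, so reads of a gene and its antisense partner cannot be told apart. No sample column was unused. Replicates were compared and were not identical.

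After rounding, the expected counts entered edgeR 4.0.16 (R 4.3.3) with TMM factors, a filter by filterByExpr (at least 10 counts), a robust quasi-likelihood fit over the 6 libraries with 3 residual degrees of freedom, and Benjamini-Hochberg adjustment over 16354 genes. Genes with an adjusted p under 0.05 were called. All adjusted p-values are from this test unless another setting is named. Standard errors were computed from the fold change and its F statistic. Library totals of 15.6 to 52.7 (in units of 1e6 counts) set the precision of a level. Folds against 0 counts use a floor of 3 counts over the group, and ratios on 1 to 3 counts have exact 95% intervals; both cover counting error only.

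Named genes had a mean of at least 5 CPM in a compared line and no overlap between OS-LM1 and 786-O libraries. They were the 10 largest rises and falls, the 8 leading genes per side and direction of 786-M1A, the 6 per direction with 786-M1A within 0.25 of 786-O, up to 4 members per list and direction, and, whatever their rank, CXCR4, CYTIP, VHL, EPAS1, HIF1A, PAX8, PAX2, CDH1, VIM and CDKN2A. Some other named items and 1 list are not reported here. The members and lists were chosen with earlier results of these data known. Where a list gives an older symbol beside the current one, the symbol of the files was used (CYR61, CTGF and CXCL8).

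Other settings tried were limma 3.58.1 on log2(TPM + 1), DESeq2 1.42.0, scaling by RLE, filters of 50 counts and of none, the compared lines alone, a replicate block, counts thinned to equal totals, each library left out and a fold threshold. Offsets with a lowess correction for gene length were added after seeing the data. The code of the fit was tried on simulated data with the same spread for all genes and lines and few changed genes. These data differ in both, so the trial does not measure error rates here. Chromosomes and promoter windows came from RefSeq (GRCh38.p14) by symbol for 15825 and 12494 tested genes. Tables and plots used Python 3.11.15 with pandas 2.3.3, numpy 2.4.6, scipy 1.17.1 and matplotlib 3.10.9.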

Additional observations from a re-analysis of the deposited data

How the results depend on the processing

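The count of genes called in OS-LM1 versus 786-O stayed within 1.5 times the value of 10405 under each alternative that kept the threshold on the adjusted p alone, from 7976 to 11420 with a library left out; where a log2 fold change of 1 was also required it was 5182. Under that fold threshold, 1931 genes were called in 786-M1A versus 786-O and 6128 in OS-LM1 versus 786-M1A, and 786-M1A lay on the OS-LM1 side for 741 and on the opposite side for 356. Fitted on the compared lines alone, 8733 genes were called in 786-M1A versus 786-O and 2474 lay on the opposite side. With a library left out, the counts ran from 2259 to 8763 in 786-M1A versus 786-O, from 960 to 3460 on the OS-LM1 side and from 470 to 3318 on the opposite side, lowest without 786-O replicate 2; the cause was not tested. With the replicate number as a block, 9825 genes were called in OS-LM1 versus 786-O, 4654 higher and 5171 lower. The deviations of same-numbered libraries correlated at -0.00, 0.05 and -0.07 across genes. This cannot show whether libraries of the same number were prepared together. Of the 282 named genes called in OS-LM1, 262 were called under each setting that gave a value, 20 missed the threshold under at least 1, and no direction was reversed. Most named genes were chosen among those called in the main fit, without overlap and with large fold changes. The stability of their calls is therefore largely set by that choice and does not speak for all genes. Of the 36 list medians, 27 kept their sign under each scaling, filter and left-out library and 9 did not. Depth limited the OS-LM1 libraries most, with 25.8 and 15.6 in units of 1e6 counts.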

Other observations

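Upstream windows of 250 bases were also described for the groups of genes set by direction, with no test. A CpG ratio of at least 0.6 was found for 12 of the 18 matched genes with 0 counts in 786-O (66.7%), for 12 of the 17 with 0 counts in OS-LM1 (70.6%) and for 74% of the 12494 windows of all tested genes. The motif given for HIF was in 6 of those 18 windows (33.3%) and 5 of those 17 (29.4%), against 55.1% of all. For genes with 786-M1A on the OS-LM1 side and on the opposite side it was in 54.3% and 54.2% of windows, and the motif given for NF-kB in 4.26% and 3.83%, against 4.03% of all. These shares describe letters of the sequence only.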
